A study of Mus musculus with 6 samples.

Results

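The troponin and tropomyosin genes are 10 genes of the thin filament, chosen by name as Tnnt1, Tnnt2, Tnnt3, Tnni1, Tnni2, Tnni3, Tnnc1, Tnnc2, Tpm1 and Tpm2, and taken from a set of 18193 genes measured on expression arrays of the mouse heart. The platform annotation tied 20 of 45037 tested probe sets to 1 of these genes alone. Expression was measured in the apex of the left ventricle of 6 littermate mice, 3 in which Paxip1 had been deleted by induction and 3 controls, with 1 array per mouse. Paxip1 encodes the nuclear protein PTIP. The knockout mice had 1 floxed and 1 null allele of it and a transgene for Cre recombinase, fused to a modified estrogen receptor, under the promoter of alpha myosin heavy chain. Controls had 1 floxed and 1 wild-type allele, with no Cre transgene named in the labels. All mice were female, of a mixed C57B6 and B6129 background and 8 weeks old, and all received tamoxifen at 20 mg/kg. The labels describe tamoxifen treatment for 5 days in one place and collection 5 days after injection in another. The transgene limits the induced deletion to cardiomyocytes, whereas the null allele lies in every cell of the knockout mice. Effects of the deletion, of the null allele and of the transgene cannot be told apart in these groups.

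Troponin and tropomyosin regulate contraction of striated muscle. Tropomyosin lies along the actin filament and blocks the sites where myosin binds, and the troponin complex moves it when calcium rises. In that complex troponin C binds calcium, troponin I inhibits the binding of myosin to actin, and troponin T anchors the complex to tropomyosin. The adult mouse heart uses Tnnt2, Tnni3, Tnnc1 and Tpm1, of which Tnnc1 also serves slow skeletal muscle and Tpm1 also fast skeletal muscle. Tnnt1 and Tnni1 are the slow skeletal genes, and Tnni1 is also the troponin I gene of the embryonic heart. Tnnt3, Tnni2 and Tnnc2 are the fast skeletal genes, and Tpm2 encodes beta tropomyosin of skeletal and smooth muscle. The gene table places troponin I and T genes side by side in the genome. Tnni3 and Tnnt1 are direct neighbours on chromosome 7 with 0 protein-coding genes between them, Tnni2 and Tnnt3 have 1 between them on the same chromosome, and Tnni1 and Tnnt2 have 1 between them on chromosome 1.

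The brightest probe sets of the 4 adult heart genes, which lie near the top of the array's scale, stood at nearly the same level in every mouse, while a dimmer Tpm1 probe set was lower in every knockout mouse by 0.82 in the mean. Tnnt1 and Tnni2 were about 2.0-fold lower in the knockout ventricles. Tpm2 had higher knockout means on 4 of 4 probe sets, by 0.19 with overlapping groups on the brightest and by up to 1.47 on the others. All differences are log2 values of the knockout mean minus the control mean, and a difference of 1 is a doubling. Because these genes were chosen with this comparison known, their values are a description, no p-value is given for any of them, and counts of members past a threshold are given beside the share of all genes with nothing read from them. Of the 10 genes, 1 (Tnnt1) passed the genome-wide threshold of a limma adjusted p under 0.05, where 0.286% of all genes passed. The groups did not overlap for 2 of the 10 genes (Tnnt1 and Tnni2, both lower), where 16.0% of all genes did not overlap and 6.57% were lower without overlap. The 10 genes had a median difference of -0.04 and the 18193 genes one of 0.02, and 2 of the 10 differed by at least 1 in either direction, where 0.857% of all genes did.

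**Figure D1:**
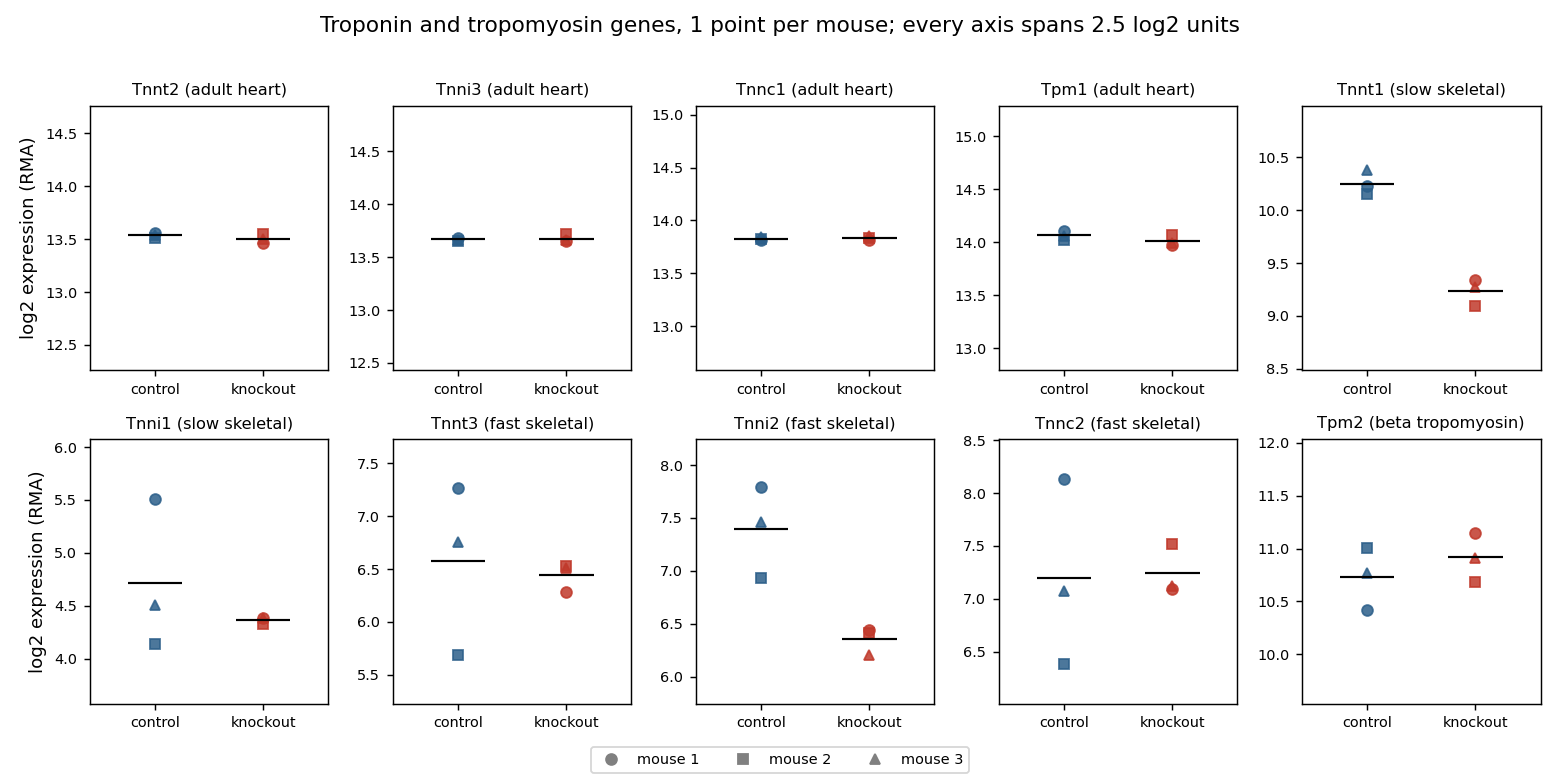
Log2 expression (RMA) of the 10 genes in each mouse, with controls in blue, knockouts in red, 1 marker shape per mouse number and a line at the mean of each group of 3 mice. Each axis spans 2.5 log2 units, so that the flat adult heart genes, the separated groups of Tnnt1 and Tnni2 and the wide control values of Tnni1, Tnnt3 and Tnnc2 can be seen on the same scale.

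Paxip1 itself was lower in all 3 knockout mice than in all 3 controls on 4 of 4 probe sets, with limma adjusted p between 0.0240 and 0.106, of which 3 passed. As for markers of the labelled tissue, 10 of 10 ventricular cardiomyocyte genes were above background and their mean level lay between 13.32 and 13.36 in the 6 mice. Being above background does not tell tissues apart, since 5 of 6 atrial, 8 of 8 smooth muscle and 7 of 7 fibroblast markers were above it too. The mean level of the 6 atrial genes lay between 6.47 and 7.45. Single atrial genes ranged from Bmp10, below background in every mouse, to Nppa, with a mean of 12.25 over the 6 mice. These genes were named after their values were seen. Background here is 4.11, the 95th percentile of the means of 44 probe sets of olfactory receptor genes, which the heart is taken not to express. By that measure 17 of the 20 troponin and tropomyosin probe sets were above background, and at least 1 probe set was above it for each gene. Correlations between arrays lay between 0.989 and 0.995. The actin controls of the array, set as 3' minus 5' end, give a measure that is larger in degraded RNA, and it was highest in control 1 at 1.85 and lowest in control 2 at 1.17.

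Troponin T of the adult heart is encoded by Tnnt2. Its probe set 1418726_a_at read 13.46, 13.55 and 13.50 in knockouts 1, 2 and 3 and 13.56, 13.51 and 13.54 in controls 1, 2 and 3. The groups overlapped, with a difference of -0.03 (SE 0.10). A second probe set of Tnnt2, 1424967_x_at, differed by -0.03 as well. The third, 1440424_at, was less bright and gave means of 8.12 ± 0.07 for the knockouts and 8.31 ± 0.50 for the controls (SD, n = 3 each), with control 1 lowest at 7.74 and control 3 highest at 8.68.

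Tnni3, which encodes cardiac troponin I, the form whose phosphorylation speeds relaxation, read 13.65, 13.71 and 13.66 in the knockouts against 13.68, 13.66 and 13.66 in the controls, a difference of 0.01 (SE 0.10). The values of the 2 groups lay within one another. Tnnc1, the calcium sensor of heart and slow muscle, read 13.81, 13.84 and 13.86 in the knockouts against 13.82, 13.82 and 13.84 in the controls, a difference of 0.01 (SE 0.10). These 2 genes had the same pattern as Tnnt2, with the groups intermixed.

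Tpm1, the main tropomyosin gene of the heart, had 4 probe sets that did not behave alike. The brightest, 1423049_a_at, read 13.97, 14.07 and 14.00 in the knockouts against 14.11, 14.02 and 14.06 in the controls, a difference of -0.05 (SE 0.10). The probe set 1423721_at differed by the same -0.05 (SE 0.14). On both the groups overlapped. The Tpm1 probe set 1456623_at, in contrast, read 7.55, 8.07 and 7.11 in the knockouts against 8.21, 8.44 and 8.54 in the controls, so that every knockout mouse was below every control, with a difference of -0.82 (SE 0.24). The remaining one, 1447713_at, was below background in all 6 mice. Tpm1 is spliced into many forms, and the files do not say which of them each probe set detects. Averaging all 4 probe sets gave Tpm1 a difference of -0.23 in place of -0.05.

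The brightest probe sets of these 4 heart genes sit near the upper end of the array's scale, whose highest value was 14.11. Of 168 probe sets with a mean above 13, 5 differed by more than 0.1 in either direction and 0 by more than 0.5. Their median absolute difference was 0.03, against 0.12 for all probe sets. How far such bright probe sets can follow a change in RNA was not tested. Across the 4 genes the median difference was -0.01, and centring the arrays on their medians made it 0.03, so these data give the heart isoforms no direction.

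Tnnt1, which encodes slow skeletal troponin T, was lower in every knockout mouse than in every control. It had 1 probe set, 1419606_a_at, which read 9.34, 9.10 and 9.27 in the knockouts against 10.23, 10.15 and 10.38 in the controls. The highest knockout value lay below the lowest control value by more than the range within either group. The means were 9.24 ± 0.13 and 10.25 ± 0.11 (SD, n = 3 each), a difference of -1.01 (SE 0.12), or 2.02-fold lower in the knockout mice. With 1 mouse left out at a time the difference lay between -1.07 and -0.94, although Tnnt1 then no longer passed the genome-wide threshold, whichever mouse was left out. Its direct neighbour in the genome, Tnni3, differed by 0.01.

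Because Tnnt1 and Tnni3 are neighbours with different values here, and all 4 Tpm2 probe sets had higher knockout means, the 250 bases before the annotated start of these genes are given 5′ to 3′ from RefSeq (GRCm38.p6). Tnnt1 lies on the minus strand, chr7:4515976-4516225, Tnni3 on the minus strand, chr7:4522529-4522778, and Tpm2 on the minus strand, chr4:43523555-43523804. Capitals mark E-boxes (CANNTG), sites of the kind that muscle basic helix-loop-helix factors bind.
Tnnt1: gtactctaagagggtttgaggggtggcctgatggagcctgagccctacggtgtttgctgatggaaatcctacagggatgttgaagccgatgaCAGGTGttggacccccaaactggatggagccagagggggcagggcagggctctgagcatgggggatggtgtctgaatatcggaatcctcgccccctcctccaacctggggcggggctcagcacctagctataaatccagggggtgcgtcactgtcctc
Tnni3: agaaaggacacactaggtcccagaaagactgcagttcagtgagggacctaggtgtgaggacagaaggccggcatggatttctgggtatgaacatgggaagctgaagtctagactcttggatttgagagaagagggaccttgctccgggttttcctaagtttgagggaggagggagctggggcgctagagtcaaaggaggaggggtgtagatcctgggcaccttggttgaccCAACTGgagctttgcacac
Tpm2: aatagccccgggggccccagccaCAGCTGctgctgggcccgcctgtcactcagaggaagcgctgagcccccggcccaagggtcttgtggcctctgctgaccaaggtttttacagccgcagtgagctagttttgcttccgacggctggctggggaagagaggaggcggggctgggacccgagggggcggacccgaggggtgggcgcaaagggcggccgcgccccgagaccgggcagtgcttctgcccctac
Sequence was matched for 8 members, all but Tnnt3 and Tnni2, in 10 windows, since Tnnt2 and Tnni1 have 2 each. On both strands the windows were searched for E-boxes, for the M-CAT element CATTCC, which TEAD factors bind, for the CArG box of serum response factor and for the MEF2 box, the last 2 by their usual consensus. An E-box stood in 10 of 10 member windows and in 66.2% of 32851 windows of this length, and an M-CAT element in 3 of 10 (Tnnt2, Tnnc1 and Tpm1) and in 12.6% of all. The 2 Tnni1 windows overlap and share E-boxes, so the 10 are not all separate. The M-CAT element begins 27 bases before the start of Tnnt2, 58 before that of Tnnc1 and 56 before that of Tpm1, all 3 of them genes of the adult heart class. The window of Tnni3, also of that class, and the other Tnnt2 window held none. No member window held a CArG box (1.47% of all windows) or a MEF2 box (2.92%), and no motifs overlapped one another. These are matches of letters, not sites of binding.

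Tnni1, slow skeletal and embryonic troponin I, was close to background. Its probe set 1450813_a_at read 4.38, 4.33 and 4.38 in the knockouts against 5.51, 4.14 and 4.50 in the controls. Control 1 stood above all other mice, and the other 2 controls lay on either side of the knockout values. The difference was -0.35 (SE 0.32) with all mice and 0.04 without control 1, so 1 mouse set its size and its sign. The 2 slow skeletal genes together had a median difference of -0.68, which rested mainly on Tnnt1.

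**Figure D2:**
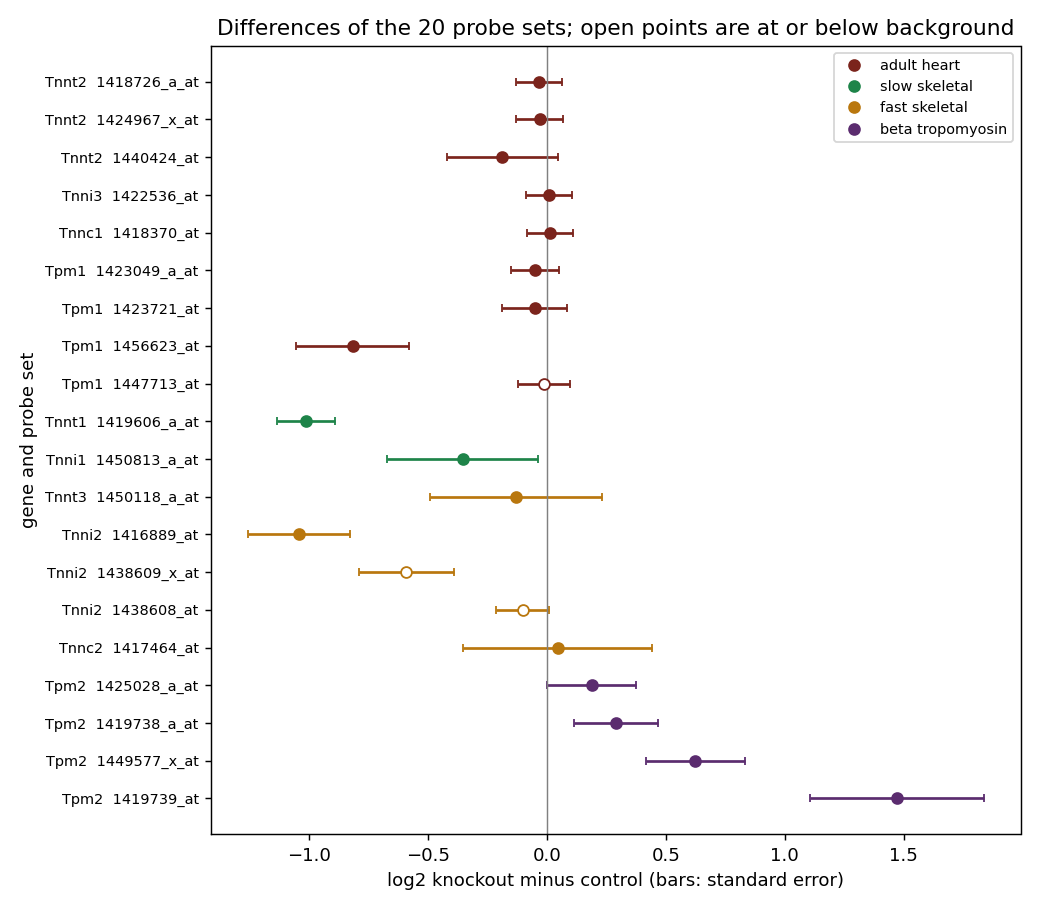
Log2 difference, knockout minus control, of each of the 20 probe sets (3 mice a group), with bars of 1 standard error and colours for the isoform class; open points are probe sets at or below background. Tnnt1, the bright Tnni2 probe set and Tpm1 1456623_at lie to the left, the Tpm2 probe sets lie to the right by 0.19 to 1.47, and the bright adult heart probe sets lie near 0.

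Of the fast skeletal genes, Tnni2, which encodes fast troponin I, was lower in the knockout mice. The probe set 1416889_at read 6.44, 6.41 and 6.20 in the knockouts against 7.79, 6.93 and 7.46 in the controls, so the groups did not overlap. The means were 6.35 ± 0.13 and 7.39 ± 0.43 (SD, n = 3 each), a difference of -1.04 (SE 0.21), or 2.06-fold lower in the knockout mice. With 1 mouse left out at a time it lay between -1.27, without control 2, and -0.85, without control 1. The other 2 Tnni2 probe sets, 1438609_x_at and 1438608_at, were below background in every mouse, with differences of -0.59 and -0.10, and averaging all 3 gave -0.58.

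Tnnt3, which encodes fast troponin T, read on its probe set 1450118_a_at 6.28, 6.53 and 6.51 in the knockouts against 7.27, 5.68 and 6.76 in the controls. The knockout values lay inside the range of the controls, and the difference was -0.13 (SE 0.36). Without control 1 it was 0.22 and without control 2 it was -0.57. Tnnc2, which encodes fast troponin C, read on its probe set 1417464_at 7.09, 7.52 and 7.12 in the knockouts against 8.13, 6.39 and 7.08 in the controls, a difference of 0.04 (SE 0.40), which was 0.51 without control 1 and -0.36 without control 2. The median of the 3 fast genes was -0.13, and no difference shared by the 3 subunits of the fast complex was seen. Fast troponin I was lower in each knockout mouse, while fast troponin T and C spread more among the controls than between the groups. That spread leaves the difference of each of these 2 genes imprecise. Whether their differences differ from that of Tnni2 was not tested. The separate SEs cannot tell, since the 3 genes were measured in the same mice and varied together.

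The skeletal troponins varied together among the 3 controls. Tnni1, Tnnt3, Tnni2 and Tnnc2 were each highest in control 1, lower in control 3 and lowest of the controls in control 2, an order found in 24.0% of all genes. Control 1 was the highest of all 6 mice for these 4 genes and for 26.4% of all genes. Tnnt1 had another order, with control 3 highest and control 2 lowest. With the group means subtracted, the deviations of Tnni2 over the 6 arrays had a Pearson correlation of 0.92 with those of Tnnt3, 0.92 with those of Tnnc2, 0.87 with those of Tnni1 and 0.26 with those of Tnnt1. These values are a description over 6 arrays of 2 groups, and they share the arrays and their normalization.

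Markers of skeletal muscle fibres were examined beside them. Of 13 such genes, 8 were above background. The skeletal myosin heavy chain genes Myh1, Myh2 and Myh4 and the parvalbumin gene Pvalb were below it in all 6 mice. The mean level of the 13 lay between 5.53 and 5.72 in the knockout mice and between 5.35 and 5.88 in the controls. It was highest in control 1 at 5.88 and lowest in control 2 at 5.35. In the same 2 mice the actin control was highest and lowest. Among the knockouts the order was another, with knockout 3 highest in the actin control at 1.64 and lowest in the marker mean at 5.53. Among the 8 above background, 5 had the order of control 1 over control 3 over control 2. By sign 7 of the 13 were lower and 6 higher in the knockouts, and none passed (limma, 1 at an unadjusted p under 0.05). That 1 was Myl1, an alkali light chain of fast muscle myosin, which was higher in the knockout mean by 1.01 (SE 0.40, limma adjusted p = 0.518) with overlapping groups, opposite in sign to Tnni2. The part of other fibres or of RNA quality in the skeletal troponin values was not tested, and fewer cells of a type cannot be told apart from less RNA per cell in a bulk sample.

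**Figure D3:**
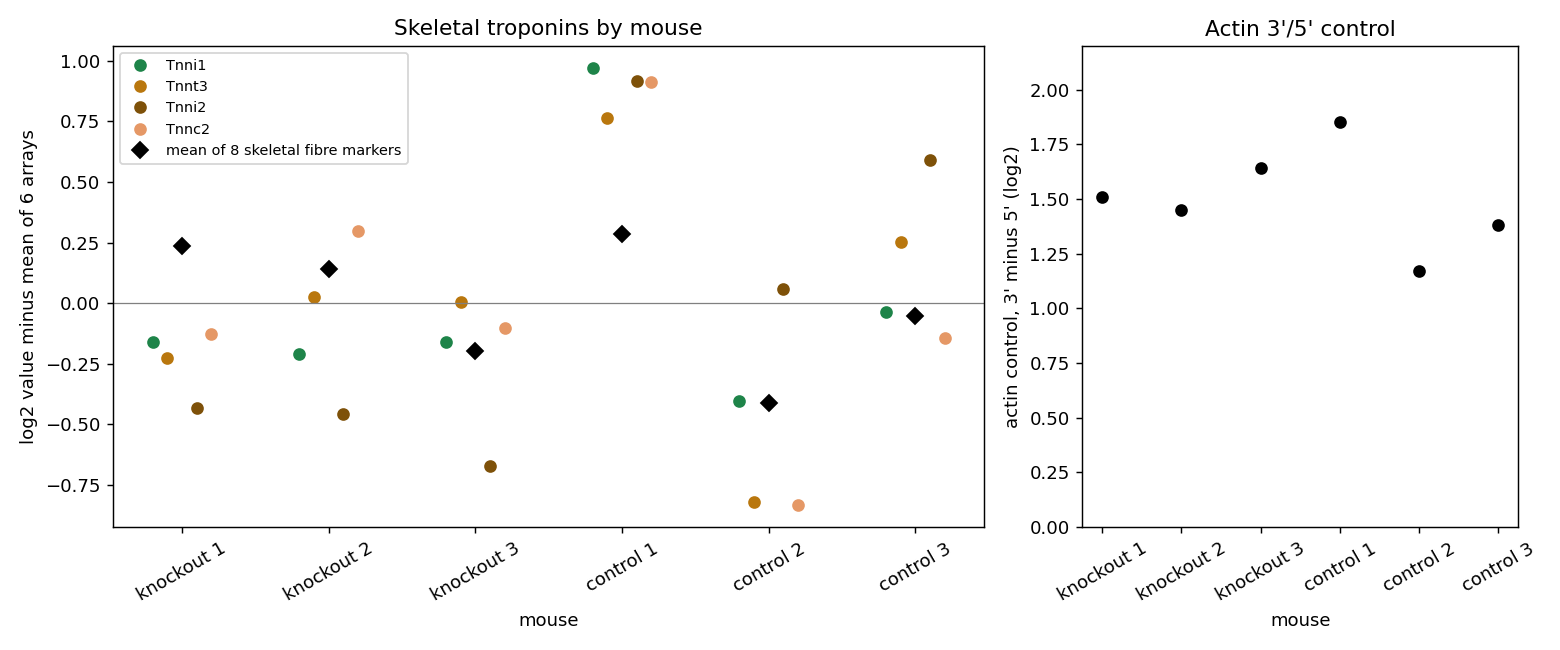
Left, log2 values of Tnni1, Tnnt3, Tnni2 and Tnnc2 and the mean of 8 skeletal fibre markers in each of the 6 mice, each as a deviation from its mean over the 6 arrays; right, the actin control of the array, 3' minus 5' end on the log2 scale, in the same mice. Control 1 is highest and control 2 lowest of the controls for all of them, and for Tnni2 all 3 knockout mice lie below every control.

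By the measure of correlation after subtraction of the group means, the genes most like Tnni2 among 11508 genes above the median brightness were Pfn2, a profilin that binds actin monomers, Pygb, a glycogen phosphorylase, Clk2, a kinase of splicing factors, Col27a1, a fibrillar collagen, and Fnbp4, with Pearson correlations from 0.995 to 0.998 over 6 arrays. These were the highest of 11508 values over only 6 arrays, so their size was selected for, and a link to Tnni2 was not tested. None of these 5 genes differed between groups as Tnni2 did. Their differences lay between -0.11 and 0.20, and the groups overlapped for each of the 5.

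Tpm2, the beta tropomyosin gene, had higher knockout means on 4 of 4 probe sets. The brightest, 1425028_a_at, read 11.15, 10.69 and 10.91 in the knockouts against 10.42, 11.00 and 10.77 in the controls, with a difference of 0.19 (SE 0.19) and overlapping groups. The Tpm2 probe set 1419738_a_at read 11.09, 10.57 and 10.83 against 10.28, 10.73 and 10.60, a difference of 0.29 (SE 0.18), also with overlap. On these 2 probe sets knockout 1 was the highest mouse and control 1 the lowest.

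The other 2 probe sets of Tpm2 separated the groups. The probe set 1449577_x_at read 8.74, 8.08 and 8.31 in the knockouts against 8.01, 7.45 and 7.80 in the controls, a difference of 0.62 (SE 0.21). The probe set 1419739_at read 7.78, 6.78 and 7.19 in the knockouts against 6.24, 5.02 and 6.07 in the controls, a difference of 1.47 (SE 0.36), or 2.77-fold higher in the knockout mice. On both, every knockout mouse was above every control, and control 2 was the lowest mouse, which on the 2 brighter probe sets was not the case. The annotation lists one and the same source sequence for 1419738_a_at, 1419739_at and 1449577_x_at. Averaging all 4 probe sets gave Tpm2 a difference of 0.64, and the brightest alone differed by 0.03 without control 1.

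Smooth muscle, which also uses Tpm2, was followed by 8 marker genes, all above background. Their mean level lay between 8.61 and 8.88 in the knockout mice and between 8.48 and 8.69 in the controls, highest in knockout 1 and lowest in control 1, as on the 2 brightest Tpm2 probe sets. Of the 8, 6 were higher and 2 lower, and none passed (limma, 1 at an unadjusted p under 0.05). The 1 was Smtn, the smoothelin gene, which read 10.92, 10.90 and 10.89 in the knockouts against 10.47, 10.30 and 10.61 in the controls, a difference of 0.44 (limma adjusted p = 0.293). The 2 lower genes were Acta2, smooth muscle actin and the brightest of the 8, with a difference of -0.33 (SE 0.15, limma adjusted p = 0.566) and overlapping groups, and Mylk, myosin light chain kinase, with one of -0.05. These 3 were named after their values were seen. The share of smooth muscle in the Tpm2 values was not tested.

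Tpm3 and Tpm4, the other tropomyosin genes, are not members and were named to complete the family. Their brightest probe sets differed by -0.09 (SE 0.14, limma adjusted p = 0.918) and -0.12 (SE 0.14, limma adjusted p = 0.879). The groups overlapped on all 5 Tpm3 probe sets and on the only Tpm4 probe set.

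Among 19 measured genes of partners of the thin filament, 1 (Klhl40) passed the threshold of a limma adjusted p under 0.05, higher in the knockouts, and no gene with a lower knockout mean passed it. Klhl40, a kelch protein that stabilises leiomodin and nebulin, read 9.89, 9.36 and 9.66 in the knockouts against 8.14, 8.45 and 8.25 in the controls, a difference of 1.36 (SE 0.16, limma adjusted p = 0.0452). Each knockout mouse was above each control, but Klhl40 did not pass with any 1 mouse left out (limma adjusted p from 0.0905 to 0.170). Tmod4, the tropomodulin of skeletal muscle that caps the pointed end of the actin filament, read 8.86, 8.51 and 7.85 in the knockouts against 9.14, 9.86 and 9.55 in the controls, a difference of -1.11 (SE 0.28, limma adjusted p = 0.281). Acta1, skeletal alpha actin, differed by -0.88 (SE 0.23, limma adjusted p = 0.290), with no overlap between groups. By sign, 10 of the partners were lower and 9 higher, with a median of -0.03, and 5 had an unadjusted p under 0.05, as did 9.27% of all genes.

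None of 21 measured transcription regulators linked to the choice of isoform passed (limma, 5 at an unadjusted p under 0.05), with a median difference of -0.02. Those with the smallest p were Tbx5, Thra and Srf. Tbx5, a T-box factor of the heart, read 10.24, 10.26 and 10.15 in the knockouts against 9.82, 9.66 and 9.62 in the controls, a difference of 0.52 (SE 0.11, limma adjusted p = 0.188). Its second probe set differed by 0.89 (limma adjusted p = 0.156). The mean of the 2 differed by 0.70 (limma adjusted p = 0.0366), which passed. That last p-value comes from a separate limma fit on gene averages, adjusted over genes and not over probe sets. Thra, the thyroid hormone receptor alpha gene, differed by -0.38, -0.40 and -0.46 on its 3 probe sets (limma adjusted p from 0.305 to 0.459), each without overlap. On 1443952_at the separation was a near tie, with knockout 1 and control 2 both at 8.64. Srf, serum response factor, differed by 0.38 on both of its probe sets (limma adjusted p = 0.407 and 0.332), again without overlap.

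On their brightest probe sets none of 10 splicing factors known to act on muscle transcripts passed with limma, and 0 had an unadjusted p under 0.05. Rbfox1, the muscle and neuron splicing factor with the smallest p, differed by -0.23 (SE 0.11, limma adjusted p = 0.592). Celf1 and Qk differed by -0.13 and -0.12 (limma adjusted p = 0.799 and 0.855), without overlap for Celf1 and with overlap for Qk. The other Celf1 probe sets differed by -0.06 to 0.24, with 0.24 on 1427413_a_at without overlap (limma adjusted p = 0.619). Every Qk probe set had a lower knockout mean, with -0.43 on 1429735_at without overlap (limma adjusted p = 0.428). The groups did not overlap on 1417073_a_at and 1429318_a_at either, with -0.25 and -0.27 (limma adjusted p = 0.623 and 0.686). Every Rbfox1 probe set had a lower knockout mean too, without overlap on all but 1438217_at. The Rbfox1 probe set 1447735_x_at was below background in every mouse. Nor did any of 6 measured kinases that phosphorylate troponin pass with limma on its brightest probe set, where 0 had an unadjusted p under 0.05. Prkd1, protein kinase D, differed by -0.36 (SE 0.18, limma adjusted p = 0.622) with overlapping groups. Its second probe set, 1447623_s_at, differed by -0.30 without overlap (limma adjusted p = 0.501). Prkce differed by 0.13 (limma adjusted p = 0.852), and Prkacb, a catalytic subunit of protein kinase A, by -0.11 (limma adjusted p = 0.868). For both genes the groups overlapped on every probe set. The medians of these lists were 0.02 and -0.01, near that of all genes.

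**Figure D4:**
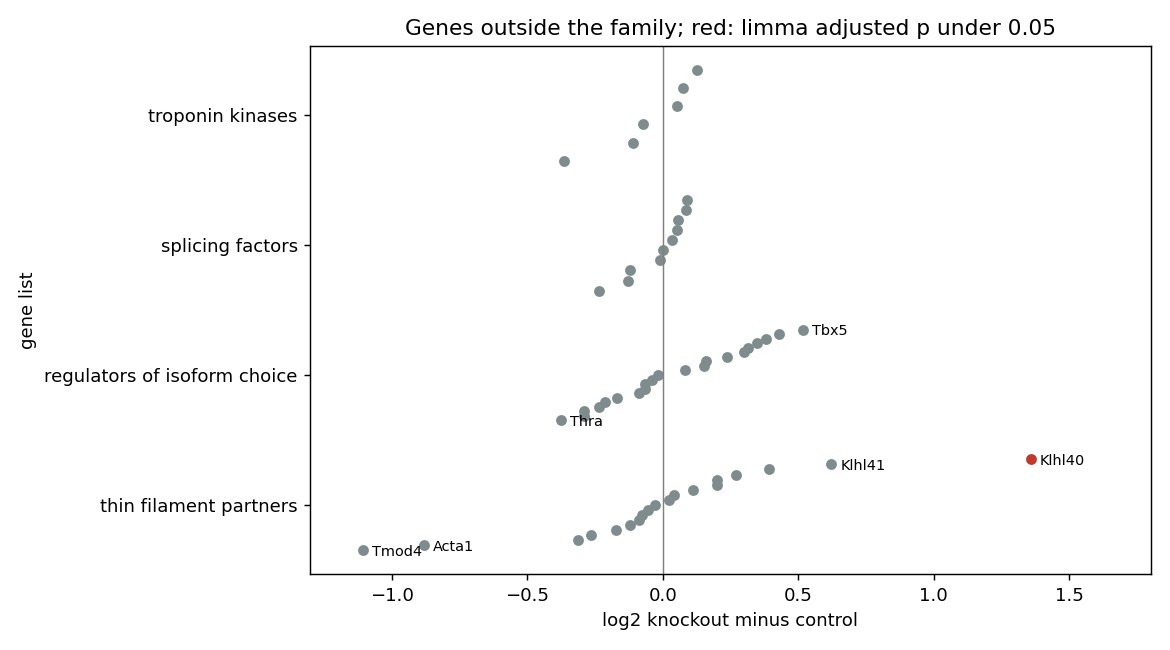
Log2 difference, knockout minus control, of each measured gene of the 4 lists outside the family (19 thin filament partners, 21 regulators, 10 splicing factors and 6 kinases, 3 mice a group), 1 point per gene, red where the limma adjusted p is under 0.05. Klhl40 at 1.36 is the only red point, and Tmod4 and Acta1 lie farthest to the left.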

How the data were processed

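RNA of the left ventricular apex was extracted with a Qiagen kit, amplified and labelled by the NuGen Ovation biotin method, per the labels, and measured on arrays whose probe set names are those of an Affymetrix mouse design. The deposited log2 values were made by the authors with RMA (background correction, normalisation between arrays and a summary per probe set), as named in the submitters' processing notes. Its version was not given in the sources used here. That the scale is log2 was taken from the values, which lie between 1.36 and 14.1. Array medians lay between 5.15 and 5.26. The number of mice limits the precision.

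The 64 control probe sets among 45101 were not tested. The platform annotation gave 1 gene for 34945, several for 932 and did not list 9160. Symbols were updated through the Entrez identifier of 34741 with a RefSeq table (GRCm38.p6). The brightest probe set represented a gene. The comparison used lmFit and eBayes of limma 3.58.1 (R 4.3.3) with group as its term, with Benjamini-Hochberg adjustment over 45037 probe sets. SEs are moderated.

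Members and lists were chosen with earlier results of these data known. Named are all members with their probe sets, each Paxip1 probe set, list genes that passed and the 3 smallest p of each list. Also named are the 5 genes most like the member with the largest difference, markers given beside a member, and the atrial markers Nppa and Bmp10. The fit was tested on simulated data. Alternatives were the normalization, variance model, array weights, filters, replicate number, single mice left out, 4 arrays with like description numbers (knockout 3 and the controls) and the averaging of probe sets, of which averaging only those above background was chosen after seeing the data. Same-numbered mice did not deviate together (correlations -0.15, -0.08 and -0.01).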

Additional observations from a re-analysis of the deposited data

How the results depend on the processing

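The number of probe sets passing was 86 and that of member genes 1 (Tnnt1), and the listed genes outside the family gave 1 (Klhl40). With 1 mouse left out the 86 became 0 to 21 with limma (0 without knockout 1 and without control 2, where 3790 and 3532 had an unadjusted p under 0.05), and the members and listed genes passing became 0 and 0, with 2 to 3 and 7 to 12 at an unadjusted p under 0.05. Among the 4 arrays with like description numbers all 3 counts were 0 (2348, 2 and 7 at an unadjusted p under 0.05), but these hold 1 knockout mouse, assumed to vary like the controls, so the counts say nothing about stability. With the replicate number as a block, a replicate block that the design does not support, all 3 counts were 0 too (3392, 2 and 8 at an unadjusted p under 0.05), and 0 of 6 mice correlated best with their own number. The 86 became 185 with a variance trend, 51 with a robust prior and 204 with array weights, and the members passing stayed at 1 in each. Averaging all probe sets of a gene, with adjustment over genes, gave 2 listed genes, Klhl40 and Tbx5.

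The median of the adult heart isoforms went from -0.013 to 0.028 with arrays centred on their median and to -0.038 with averaged probe sets. With 1 mouse left out the medians lay between -0.034 and 0.0043 (adult heart), -0.85 and -0.49 (slow skeletal) and -0.57 and 0.22 (fast skeletal). Over 120 values of single members under other settings, 108 moved by less than the SD between mice and 11 changed sign, 0 of them for Tnnt1, Tnni2 and Tpm2. Some of the 108 could not move. The replicate block leaves every difference as it was in this balanced design, and averaging leaves genes with 1 probe set as they were. The count of 108 is therefore no measure of stability.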

Other observations

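Other cell types were followed by lists of marker genes. All 5 macrophage markers were lower in the knockout means, with a median difference of -0.33, and none passed (limma, 2 at an unadjusted p under 0.05). Their mean level lay between 8.31 and 8.79 in the knockout mice and between 8.78 and 9.01 in the controls. The 6 atrial cardiomyocyte genes had a mean level of 6.77 to 6.98 in the knockout mice and 6.47 to 7.45 in the controls. This level was highest in control 1. By sign 4 of the 6 were lower and 2 higher in the knockouts, and none passed (limma, 1 at an unadjusted p under 0.05). That 1 was Nppa, higher in the knockout mean by 0.54 (SE 0.19, limma adjusted p = 0.458) with overlapping groups. Fibroblast and endothelial markers had median differences of 0.03 and 0.04 over 7 and 6 genes, and the 2 measured adipocyte markers one of 0.13. None of these passed with limma, and 0 had an unadjusted p under 0.05.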
